A study of Mus musculus with 8 samples.

Results

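Integrins are cell-surface receptors made of 1 alpha and 1 beta chain, and laminins are basement membrane proteins made of an alpha, a beta and a gamma chain. The genes of both families were measured on single-colour arrays in RNA from whole lung of 4 wild-type mice and 4 Fra-2 transgenic mice. Members were the genes whose symbol in the array annotation starts with Itga or Itgb and a digit, is Itgad, Itgae, Itgal, Itgam, Itgav or Itgax, or is Lama, Lamb or Lamc with a digit, without the Itgb1bp and Itgb3bp genes. This gave 37 genes, 27 integrins and 10 laminins, read by 51 spots, out of 20863 named genes. Where several spots carried a gene, the one with the highest mean over the 8 arrays stood for it. By the cells best known to use them, 8 members were sorted as epithelial, 20 as stromal and vascular and 9 as leukocyte subunits. The stromal and vascular class also took in Itga2b, a platelet chain, and Itgb1, a chain shared by most matrix integrins.

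Both groups were of the C57BL/6 background and 8 weeks old, kept under standard conditions, per the labels. The transgenic mice over-express Fra-2, the AP-1 transcription factor encoded by Fosl2, and the labels name neither the promoter that drives the transgene nor the cells that carry it. Fra-2 transgenic mice are known for fibrosis and vessel disease of the lung. The comparison asks which transcripts differ between the lungs of the 2 genotypes. Each mouse was measured on 1 array, and the labels name separate animals.

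An integrin links the matrix outside a cell to the cytoskeleton inside it. The integrin made by Itga6 and Itgb4 holds epithelial cells to laminin at hemidesmosomes, where plectin ties it to keratin filaments. Integrins with the Itgb1 chain bind laminins, collagens and fibronectin, those with the Itgav chain can release active TGF-beta in the lung, and those with the Itgb2 chain carry leukocytes out of vessels and into tissue.

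Levels are log2 normalised intensities, and differences are transgenic minus wild type on that scale, with the moderated standard error (SE) of limma. The median of all spots, 4.74, was taken as a floor under which signals are too dim to order. Array-wide, the deposited values had the same median on all 8 arrays. The mice numbered 4 were the least like their own groups, with mean correlations over all spots of 0.966 and 0.971 against 0.973 and 0.975 for the others. Lung markers were present: all 7 alveolar type 1 and all 7 alveolar type 2 markers lay above the floor in every mouse. The 2 Fosl2 spots disagreed in sign, -0.75 (SE 0.31) for the brighter spot and 2.45 (SE 0.47) for the dimmer one, and neither passed the test (limma adjusted p = 0.537 and 0.153 over all named spots). At the dimmer spot the wild-type mean, 4.52, was under the floor and the transgenic mean was 6.97. Its groups did not overlap, while those of the brighter spot did. The part of the transcript that each reads is not known here.

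Of the 37 members 1 rose in transgenic lung and 0 fell. The gene that rose was Itgb4, 1.91-fold, and its partner chain Itga6 stood 2.13-fold higher without passing the test. Over all genes the test called 0.216% (45 genes), 0.125% higher and 0.0911% lower, so the single call among the members is 2.70% of them. With no adjustment, 9 members had a p under 0.05, or 24.3% against 9.15% of all genes. Of these 7 were higher, where all genes gave 5.33%, and 2 lower, where all genes gave 3.82%. The lower ones include Itgae, whose group means were both under the floor, so its direction is uncertain. In 5 members, all of them higher, the transgenic and wild-type values did not overlap, 13.5% against 6.53% of all genes (3.99% higher and 2.54% lower). These 5 were Itgb4, Itga6, Itgad, Lama1 and Itgax. In Itgad all wild-type mice and transgenic mouse 4 were under the floor, so the order of that mouse cannot be read. With genes whose mean lay under the floor left out, 4 members did not overlap, where all genes gave 8%.

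**Figure D1:**
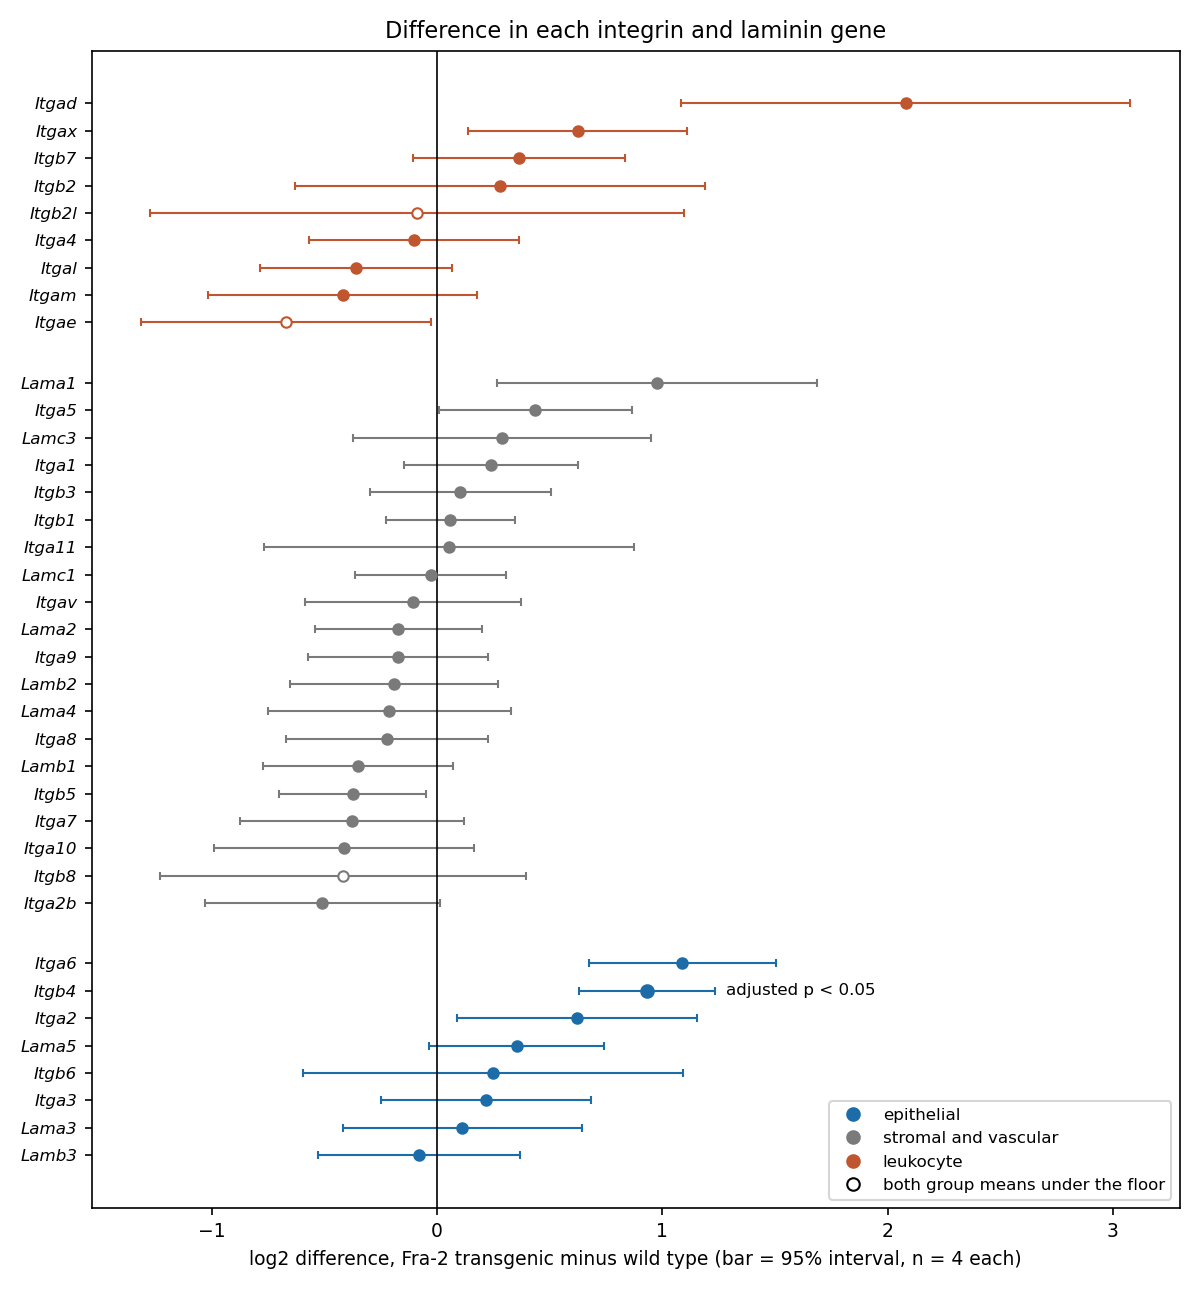
Each point is the log2 difference of 1 gene, transgenic minus wild type, with its 95% interval (n = 4 mice each); colours give the epithelial, stromal and vascular, and leukocyte subunits, and open points have both group means under the floor. Itgb4 at 0.93 carries the single adjusted p under 0.05, and 28 of the 37 intervals hold 0.

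The 3 classes had different medians, although no test of the classes against each other was run. The epithelial subunits had a median difference of 0.30, with 7 of 8 above 0. The stromal and vascular subunits had a median of -0.17, with 13 of 20 below 0. In the same mice all 7 smooth muscle and pericyte markers had negative differences (median -0.31, 2 at an unadjusted p under 0.05, 0 called), with a log2 summed intensity of 15.13 to 15.52 in wild-type and 14.81 to 15.14 in transgenic mice. Those of Cspg4 and Des turned positive without transgenic mouse 4. All 7 heart and striated muscle markers were negative too (median -0.40, 2 at an unadjusted p under 0.05, 0 called, 15.02 to 16.31 against 13.50 to 15.78). Transgenic mouse 4 was the lowest of all mice in each of these 7. In Myh6 it was at 10.71, against 13.70 to 14.09 in the other transgenic mice and 13.03 to 14.74 in wild-type mice. The negative signs, other than those of Myh7 and Nppa, rest on that mouse. Of 7 fibroblast markers 3 were negative (median 0.02, 0 called, 15.35 to 15.51 against 15.30 to 15.61). The part of these cells in the subunit values was not tested. The leukocyte subunits had a median of -0.09, with 4 of 9 above 0, and the median over all genes was 0.01. That leukocyte median is the value of Itgb2l, whose group means were both under the floor, so its sign cannot be read. With genes whose mean lay under the floor left out, it was 0.09. Under the 19 other settings the epithelial median ran from 0.23 to 0.44 and the stromal and vascular median from -0.21 to -0.05. The leukocyte median ran from -0.25 to 0.32 and changed sign, with an offset of 16 among others (0.0081). In whole lung, fewer cells of a type and less RNA per cell cannot be told apart.

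Among the laminin chains, 0 of 10 passed the test (limma, Benjamini-Hochberg; 1 had an unadjusted p under 0.05), and 6 differences were negative. Lama1 encodes the alpha chain best known from embryonic basement membrane. It stood at 5.58, 6.08, 4.97 and 6.37 in the wild-type mice and at 6.42, 7.14, 6.77 and 6.58 in the transgenic mice, in the order of mouse numbers 1 to 4 that is kept below. The highest wild-type value, in mouse 4, lay just under the lowest transgenic value, in mouse 1. Lama1 was thus 1.97-fold higher (5.75 ± 0.61 against 6.73 ± 0.31, SD, n = 4 each; difference 0.98, SE 0.31), with a limma adjusted p of 0.379 over all genes and an exact permutation p of 0.0286, two-sided, the smallest that 4 against 4 can give. Any gene whose groups do not overlap gets this permutation p, here and below, so it only restates that separation.

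Lamc1, the gamma chain shared by most laminins of vessels and alveoli, had wild-type levels of 12.55, 12.17, 12.42 and 12.45. Its transgenic levels were 12.42, 12.45, 12.52 and 12.08. The groups overlapped, and the difference was -0.03 with a 95% interval from -0.36 to 0.31. Of the alpha chains, Lama5, the main alpha chain of adult epithelial and vascular basement membranes, differed by 0.35 (SE 0.17). Lama4, an endothelial chain, differed by -0.21 (SE 0.24), Lama2, found around muscle and mesenchymal cells, by -0.17 (SE 0.16), and Lama3 by 0.11 (SE 0.23). Lama3 and Lamb3 belong to the laminin that anchors epithelium at hemidesmosomes, and Lamb3 differed by -0.08 (SE 0.20). Lamb1 differed by -0.35 (SE 0.18), Lamb2 by -0.19 (SE 0.20) and Lamc3 by 0.29 (SE 0.29). None of these 8 chains had groups that did not overlap.

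Among the 4 laminin receptor chains 1 rose, and 2 had groups that did not overlap. Itgb4, the beta chain of the hemidesmosome integrin, stood at 8.15, 8.39, 8.04 and 8.07 in the wild-type mice, numbered 1 to 4. In the transgenic mice, in the same order, its levels were 9.15, 9.18, 9.15 and 8.89. Every transgenic mouse exceeded every wild-type mouse, and the lowest transgenic value was that of mouse 4. The mean went from 8.16 ± 0.16 to 9.09 ± 0.14 (SD, n = 4 each), a difference of 0.93 (SE 0.13, 95% interval 0.63 to 1.23). The limma adjusted p was 0.0430 over all genes, and the exact permutation p was 0.0286, two-sided.

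Itga6, the alpha chain that pairs with Itgb4 in epithelium and with Itgb1 in many other cells, including endothelium, had wild-type levels of 13.30, 13.34, 13.51 and 13.95. Its transgenic levels were 14.33, 14.67, 14.81 and 14.65. The groups did not overlap, with wild-type mouse 4 nearest to the transgenic mice. Means were 13.53 ± 0.30 and 14.61 ± 0.20 (SD, n = 4 each), a difference of 1.09 (SE 0.18, 95% interval 0.68 to 1.50; limma adjusted p = 0.0799; two-sided exact permutation p = 0.0286).

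Over the 19 other settings the Itgb4 difference ran from 0.86 to 1.01 and that of Itga6 from 1.01 to 1.23. The call for Itgb4 was lost on leaving out any single wild-type mouse, or transgenic mouse 1, 2 or 3 (limma adjusted p from 0.0675 to 0.176). It was also lost without both mice numbered 4 (0.0833) and when each spot was fitted on its own (0.05005), and kept without transgenic mouse 4 (0.0495). Itga6 passed without wild-type mouse 4 (0.0368), with an offset of 16 or 32 before the log2 (0.0269 and 0.0221), when dim genes were left out (0.0346) and with a trended, robust variance (0.00678).

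**Figure D2:**
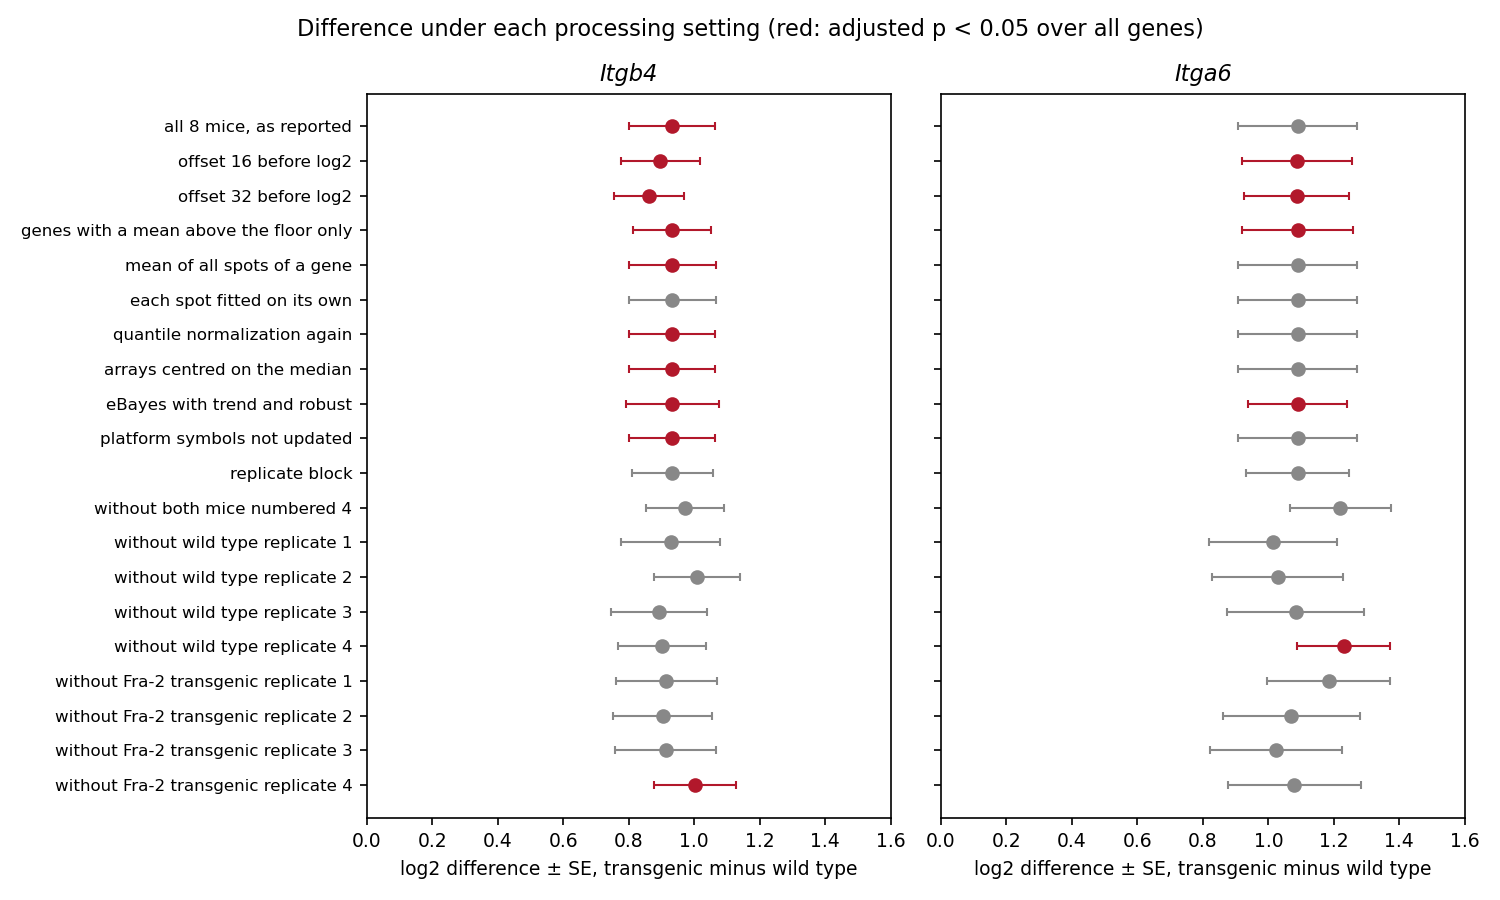
Log2 difference of Itgb4 and Itga6, transgenic minus wild type, with its SE, under the reported fit and 19 other settings; red marks an adjusted p under 0.05 over all genes. Every difference of both genes lies between 0.86 and 1.23, while the calls change with the setting.

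The other chains that meet laminin did not pass. Itgb1, the beta chain shared by most matrix integrins, was measured at 11.21, 11.21, 11.37 and 11.44 in wild type and at 11.23, 11.25, 11.52 and 11.46 in transgenic lung. The groups lay on top of each other, with a difference of 0.06 (SE 0.12) and a 95% interval from -0.23 to 0.35. That difference turned to -0.08 with the mean of both its spots. Itga3, a laminin receptor of alveolar and airway epithelium, differed by 0.22 (SE 0.20), and Itga7, a laminin receptor of muscle, by -0.38 (SE 0.22).

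Markers of the cells that carry Itga6 and Itgb4 were compared in the same mice, and their part in the result was not tested. Of 7 alveolar type 1 markers 0 passed and all 7 had negative differences (median -0.10). The log2 of their summed intensity was 16.57 to 16.73 in wild-type and 16.12 to 16.66 in transgenic mice. Transgenic mouse 4 was the lowest of all mice in Aqp5 (13.79 against 14.43 to 14.57 in the other transgenic mice) and Hopx (14.81 against 15.19 to 15.32). The negative signs of Aqp5 and Hopx rest on that mouse. Alveolar type 2 markers had a median of -0.04, with 0 of 7 called, although Sftpc sat at the top of the scale in both groups. Sftpa1 (means 15.97 in wild-type and 15.92 in transgenic mice) and Sftpb (15.96 and 15.86) lay close to it. The median is the difference of Sftpa1 and could hardly show a rise. Airway markers had a median of -0.29, with 0 of 7 called. Scgb1a1 and Cyp2f2 sat at the top of the scale and have no readable sign. The other 5 were negative, with Krt8 (-0.40, SE 0.13) and Tppp3 (-0.37, SE 0.15) at an unadjusted p under 0.05.

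Basal epithelial markers, of cells in which this integrin is abundant, gave 1 call in 6. Krt14, a basal keratin, was higher by 2.79 (SE 0.29, limma adjusted p = 0.0105), and Krt15, another keratin of basal cells, stood at 6.10 ± 0.19 in wild-type and 6.85 ± 0.18 in transgenic mice (SD, n = 4 each), without overlap (difference 0.75, SE 0.15, limma adjusted p = 0.151). Trp63, the basal transcription factor, differed by -0.52 (SE 0.17), also without overlap. Krt5, Dsg3 and Krt17 had means under the floor over all mice, and Dsg3 and Krt17 did so in each group. For Krt5 the wild-type mean, 4.26, was under the floor and the transgenic mean, 5.08, was above it. Krt5 levels were 5.02, 3.88, 4.33 and 3.80 in the wild-type mice and 5.14, 5.52, 4.67 and 4.98 in transgenic mice. The Krt5 groups overlapped, and its fitted difference of 0.82 (SE 0.30) was not called. The log2 summed intensity of the 6 was 11.24 to 11.58 in wild-type and 10.83 to 11.32 in transgenic mice, and it follows Trp63, by far the brightest of them (means 11.32 and 10.80), against the direction of Krt14 and Krt15. Of 7 endothelial markers 0 passed and 5 had positive differences (median 0.22), led by Emcn, the sialomucin endomucin, at 1.18 (SE 0.33). Endothelial log2 summed intensity was 16.32 to 16.55 in wild-type and 16.41 to 16.68 in transgenic mice.

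Among the collagen receptors 0 of 4 passed. Itga2 encodes the collagen-binding chain of epithelium and platelets. Its wild-type levels were 5.67, 5.64, 5.77 and 5.52, and its transgenic levels were 6.31, 6.59, 6.62 and 5.58. Transgenic mice 1 to 3 lay above all wild-type mice, whereas transgenic mouse 4 lay among them (difference 0.62, SE 0.23, limma adjusted p = 0.472). Without transgenic mouse 4 the groups did not overlap. Itga1, the collagen receptor of mesenchymal cells, differed by 0.24 (SE 0.17), Itga10 by -0.41 (SE 0.25) and Itga11, a receptor of fibroblasts, by 0.05 (SE 0.36).

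The receptors that bind the RGD motif of fibronectin, vitronectin and latent TGF-beta gave 0 calls in 8, while 1 was higher and 1 lower with an unadjusted p under 0.05. Itga5, the alpha chain of the fibronectin receptor, was at 7.13, 6.97, 6.78 and 6.69 in the wild-type mice and at 6.97, 7.20, 7.45 and 7.71 in transgenic mice. The groups overlapped through transgenic mouse 1 (difference 0.44, SE 0.19, limma adjusted p = 0.537). Itgb5, which pairs with Itgav as a vitronectin receptor, was at 12.61, 12.36, 12.45 and 12.55 in the wild-type mice and at 12.13, 12.37, 12.15 and 11.83 in transgenic mice. Transgenic mouse 2 lay among the wild-type values (difference -0.37, SE 0.14, limma adjusted p = 0.482).

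The Itgav chain itself, the common partner of the TGF-beta activating integrins, differed by -0.11 (SE 0.21). Itgb6, the epithelial chain that activates TGF-beta with Itgav, differed by 0.25 (SE 0.37). It had 1 low wild-type value, 8.03 in mouse 3 against 9.60 to 9.72 in the other 3, and differed by -0.16 without that mouse. For Itgb8, another TGF-beta activating chain, both group means (3.30 and 2.88) were under the floor. Itga8, a receptor of fibroblasts and smooth muscle, differed by -0.22 (SE 0.20) and Itgb3, the chain of vessels and platelets, by 0.10 (SE 0.17).

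Itga2b, the platelet alpha chain, differed by -0.51 (SE 0.23, limma adjusted p = 0.559). The 7 platelet and megakaryocyte markers, which include Itga2b itself, all had negative differences (median -0.53), with 5 at an unadjusted p under 0.05 and 0 called. Their log2 summed intensity was 12.49 to 12.72 in wild-type and 11.74 to 12.40 in transgenic mice, and their part in the Itga2b value was not tested.

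**Figure D3:**
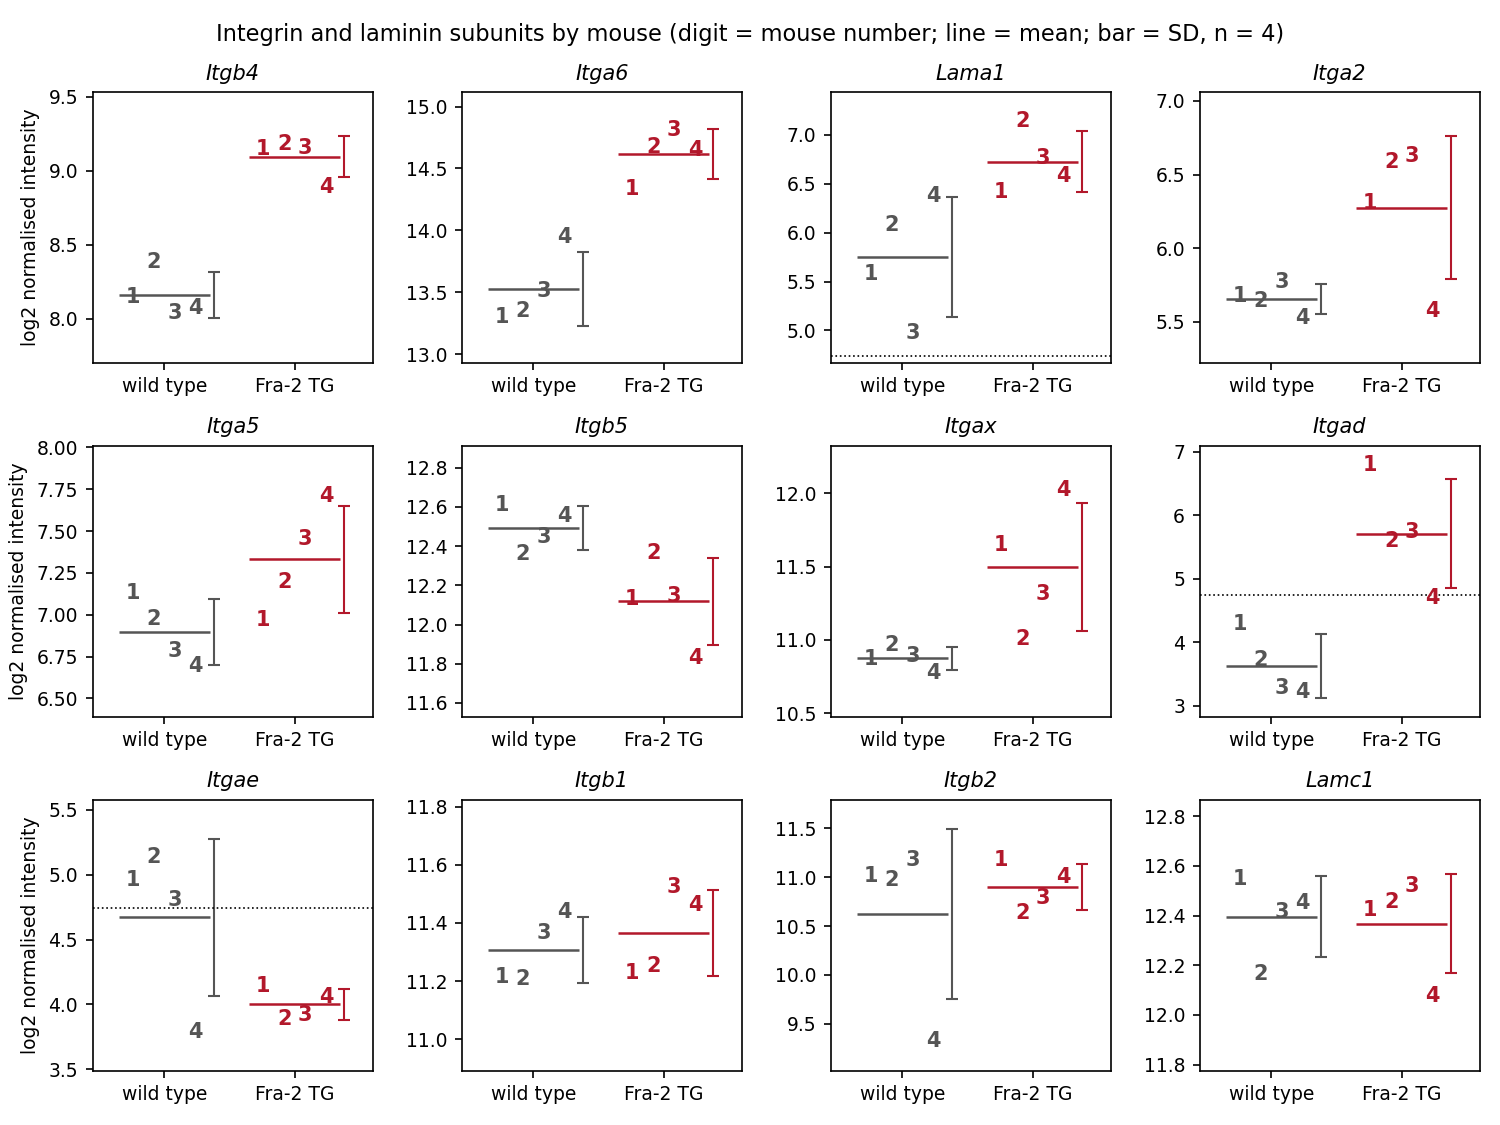
Log2 normalised intensity of 12 subunits in each mouse, with the digit giving the mouse number, the line the group mean and the bar the SD (n = 4 each); the dotted line is the floor of 4.74, and the axes differ between panels. The groups separate in Itgb4, Itga6, Lama1, Itgax and Itgad, and overlap in the other 7. In Itgad the lowest transgenic value lies under the floor.

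Of 7 chains of the Itgb2 and Itgae families 0 passed, with Itgad and Itgax higher and Itgae lower at an unadjusted p under 0.05. Both Itgae means, 4.67 in wild-type and 4.00 in transgenic mice, were under the floor, so its direction is uncertain. Itgad, a chain of tissue macrophages that pairs with Itgb2, had wild-type levels of 4.29, 3.73, 3.27 and 3.22, all under the floor. Its transgenic levels were 6.79, 5.60, 5.74 and 4.70, above every wild-type value and above the floor in 3 of 4 mice. The order of transgenic mouse 4 against the wild-type mice thus cannot be read. Itgad was at least 1.96-fold higher, as the transgenic mean against the floor, with a fitted difference of 2.08 (SE 0.43) and a limma adjusted p of 0.180. An offset of 32 before the log2 brought that difference to 0.96.

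Itgax, the chain known as CD11c on dendritic cells and alveolar macrophages, was at 10.87, 10.96, 10.89 and 10.78 in the wild-type mice and at 11.65, 11.01, 11.32 and 12.02 in transgenic mice. Transgenic mouse 2 stood just above the wild-type values and transgenic mouse 4 farthest from them. The difference was 0.62 (SE 0.21, 1.54-fold), with a limma adjusted p of 0.430 and an exact permutation p of 0.0286, two-sided.

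Fra-2 acts as a dimer on AP-1 sites, so the promoter windows of the members were searched for the AP-1 site. RefSeq windows of the GRCm38.p6 build, 250 bases before to 50 after a gene's start, were at hand for 24 of the 37 members. Itgb4, Itga6, Itgad and Lama1 were not among the 24 and were not searched here. TGACTCA, on either strand, stood in 2 of these 24 genes (8.33%) and in 5.95% of 27025 genes with a window. The 2 were Itgax and Itga9, and in Itga9, whose level differed by -0.17 (SE 0.17), no match fell in the 250 bases before the start. The Itgax window is shown because its gene was among those whose groups did not overlap. It runs along the plus strand at chr7:128129300-128129549, ends at the base before the start, and carries the match, read here as TGAGTCA, in capitals at 56 to 50 bases before the start.
Itgax: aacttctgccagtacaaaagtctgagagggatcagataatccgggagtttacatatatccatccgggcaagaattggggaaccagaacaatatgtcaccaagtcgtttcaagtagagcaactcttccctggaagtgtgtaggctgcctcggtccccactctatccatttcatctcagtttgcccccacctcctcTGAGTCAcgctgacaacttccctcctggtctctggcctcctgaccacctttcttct

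The letters are a match and not a measured binding site.

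The shared leukocyte chain Itgb2 was at 11.01, 10.97, 11.17 and 9.32 in the wild-type mice and at 11.17, 10.63, 10.78 and 11.003 in transgenic mice. Wild-type mouse 4 lay far below the other 7. The difference was 0.28 (SE 0.40) with all mice and -0.15 without wild-type mouse 4, so its direction rests on that mouse. Itgae, the chain of mucosal T cells and of some dendritic cells, was at 4.96, 5.14, 4.80 and 3.79 in the wild-type mice and at 4.14, 3.89, 3.92 and 4.06 in transgenic mice. Wild-type mice 1 to 3 were above the floor and all other values were under it (difference -0.67, SE 0.28, limma adjusted p = 0.524), so no fold is given.

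Itgam, the chain known as CD11b on neutrophils, monocytes and natural killer cells, differed by -0.42 (SE 0.26) and Itgal, the chain of the lymphocyte integrin LFA-1, by -0.36 (SE 0.19). For Itgb2l both group means (4.37 and 4.28) were under the floor. Itga4, which lets lymphocytes bind VCAM1, differed by -0.10 (SE 0.20), and its gut-homing partner Itgb7 by 0.36 (SE 0.20). None of these passed. Without both mice numbered 4 the groups of Itgae, Itgal, Itgam and Lama4 no longer overlapped, being lower in transgenic mice. The count without overlap was then 12 of 37, where all genes gave 17.7%.

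Leukocyte markers moved in the same mice, and their part in the integrin values was not tested. All 7 natural killer cell markers were lower, 3 of them called, with a log2 summed intensity of 12.69 to 13.64 in wild-type and 9.19 to 10.26 in transgenic mice. All 7 T cell markers had positive differences, 0 of them called (limma; 6 at an unadjusted p under 0.05), with a summed level of 10.85 to 11.56 against 11.80 to 12.32. Of 8 alveolar macrophage markers 7 had positive differences and 1, Marco, was called lower (15.32 to 16.42 against 16.04 to 16.62). Wild-type mouse 4 was the lowest wild-type mouse in Siglecf, Fabp1, Pparg and Ear2 (in Ear2 12.92 against 14.41 to 14.46 in the others). The positive signs of these genes rest on that mouse.

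Monocyte and interstitial macrophage markers gave 0 calls in 6 (13.07 to 13.80 against 13.62 to 13.82). Dendritic cell markers gave 0 in 7 and went both ways (median -0.06, 4 negative): Ccr7 (0.93, SE 0.38) and Cd209a (0.56, SE 0.18) were higher and Clec9a (-0.83, SE 0.33) lower at an unadjusted p under 0.05, and Xcr1 and Ccl22 were under the floor. Their summed level, 10.82 to 11.83 against 11.92 to 12.97, is mostly that of Ccr7, the brightest (means 10.997 and 11.93). Neutrophil markers gave 0 in 6 (16.25 to 17.11 against 15.85 to 16.54), and B cell markers 0 in 6, all positive (11.75 to 13.53 against 13.26 to 14.47). Wild-type mouse 4 was the lowest wild-type mouse in every B cell marker (in Cr2 8.29 against 9.29 to 9.71 in the others). The positive signs of Cr2, Pax5 and Blk rest on that mouse, and the mean of Blk over all mice was under the floor.

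Of the genes that work with integrins and laminins, 0 passed in each of 5 lists, and these lists were compared by counts alone. Of 13 other laminin receptors and hemidesmosome genes, 2 were higher at an unadjusted limma p under 0.05 (15.4%, against 5.33% of all genes). Both are partners of the integrin of Itga6 and Itgb4. Plec, which encodes plectin, was at 13.81, 13.97, 14.01 and 13.43 in the wild-type mice and at 14.50, 14.45, 14.50 and 14.38 in transgenic mice, without overlap (difference 0.65, SE 0.15, limma adjusted p = 0.210). Cd151, a tetraspanin that binds laminin-receptor integrins, was at 13.68 to 13.95 in wild-type and 14.10 to 14.18 in transgenic mice (0.30, SE 0.11, limma adjusted p = 0.464).

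Of this list 9 of 13 differences were positive. Among the 4 negative ones, Col17a1, the transmembrane collagen of hemidesmosomes, differed by -0.52 (SE 0.28), and Dag1, which encodes the laminin receptor dystroglycan, by -0.27 (SE 0.16).

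Of 19 basement membrane genes 3 were higher at an unadjusted p under 0.05 (15.8%, against 5.33% of all genes), with 0 called. Col4a1 and Col4a2, the common collagen IV chains, differed by 0.73 (SE 0.24) and 0.60 (SE 0.24), and Tinagl1, a secreted matrix protein, by 0.54 (SE 0.16). Nid1, the linker between laminin and collagen IV, was at 11.43 to 11.59 in wild-type and 11.64 to 11.92 in transgenic mice (0.26, SE 0.12), without overlap.

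Of 21 matrix ligands of integrins, the unadjusted p was under 0.05 for 1 that was higher and 1 that was lower. The higher share was 4.76%, close to the 5.33% of all genes, and all genes gave 3.82% lower. Adam15, a metalloprotease with an integrin-binding domain, differed by 0.65 (SE 0.19), and Ccn1, a matricellular integrin ligand, by -0.58 (SE 0.20, without overlap). Ccn2 and Ltbp1, which tethers latent TGF-beta, each differed by -0.39 (SE 0.18 and 0.20). Of 12 ligands on cell surfaces, Thy1 differed by 0.53 (SE 0.17) and Jam2 by 0.31 (SE 0.13), Jam3 by 0.28 (SE 0.13) and Vcam1, the ligand of Itga4 integrins, by -0.42 (SE 0.22).

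Of 29 genes that activate integrins or tie them to actin, 2 were higher at an unadjusted p under 0.05 (6.90%, close to the 5.33% of all genes). Parvb, an actin-binding partner of integrin-linked kinase, differed by 0.43 (SE 0.14) and Ptk2b, a focal adhesion kinase relative, by 0.37 (SE 0.15). Tns2, a tensin, differed by -0.44 (SE 0.22) and Itgb1bp1, which binds the tail of the Itgb1 chain, by 0.35 (SE 0.18). The median difference was -0.01 in this list, 0.13 for basement membrane, 0.08 for the other laminin receptors, 0.0049 for matrix ligands and 0.10 for cell-surface ligands, against 0.01 over all genes.

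**Figure D4:**
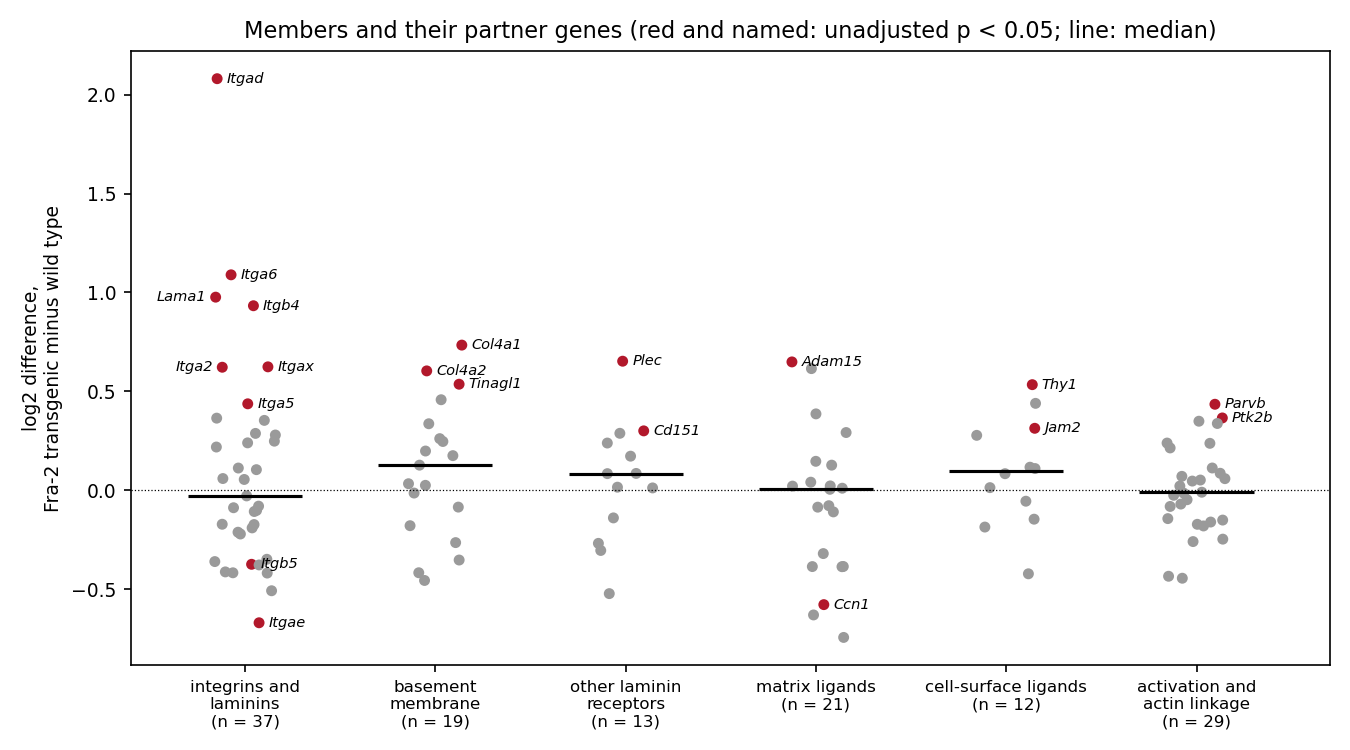
Log2 differences, transgenic minus wild type, of the 37 members and of the genes in 5 lists of partners, 1 point per gene; red, named points have an unadjusted limma p under 0.05 and lines are medians. Most points of every list lie within 0.5 of 0, and Plec, Cd151, Col4a1, Col4a2 and Tinagl1 stand on the higher side.

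Leaving out any 1 mouse left the sign of the difference as it was in 27 of the 37 members. These include the 9 at an unadjusted p under 0.05, although both Itgae means were under the floor. The sign turned for at least 1 mouse in the other 10, which were Itga4, Itga11, Itgav, Itgb2, Itgb2l, Itgb3, Itgb6, Lama3, Lamb3 and Lamc1. Of the 7 epithelial subunits above 0, Lama3 thus went to -0.10 without wild-type mouse 4 and Itgb6 to -0.16 without wild-type mouse 3, while Itga3 kept its sign but fell to 0.03 without wild-type mouse 4.

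Spots of the same gene gave a further reading for 12 members. In 9 of them at least 2 spots lay above the floor, and in 6 of these 9 the spots went the same way. The 3 exceptions were Itga1 (0.24 and -0.40), Itgam (-0.42 and 0.42) and Itgb1 (0.06 and -0.22), so the sign of these 3 depends on the spot. Itgb4, Itga6, Itgad, Lama1 and Itgax were each read by 1 spot and have no such second reading.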

How the data were processed

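Lung RNA of 8 mice was hybridised to single-colour Agilent arrays after Cy5 labelling, per the labels' protocols. The authors deposited linear intensity values for 62976 spots, already brought to a common distribution. Software named in the submitters' processing notes is limma 3.14.4 on R 2.15.1, while background correction and scaling were not stated there. The annotation named 31465 spots; RefSeq matched 29050 and replaced 2933 symbols. The log2 of the brightest spot of each of 20863 genes was fitted with limma 3.58.1 (lmFit, eBayes; R 4.3.3, with the data.table package, version 1.17.8) with group as the only term, after a test on simulated data. Benjamini-Hochberg adjustment ran over all genes (threshold 0.05). The number of arrays limits precision. Figures were drawn with matplotlib 3.10.9.

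Members and lists were chosen with earlier results of these data known. Values by mouse are given for members at an unadjusted p under 0.05 or without overlap between groups and for Itgb1, Itgb2, Itgb4, Itga6 and Lamc1, and up to 4 genes with the smallest p are named from each partner list. The floor was set after the values were seen. An "at least" fold compares the brighter mean with the dimmer values after raising them to the floor. Alternatives were offsets, filters, spot rules, scalings, variance models, symbols, a replicate block and mice left out.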

Additional observations from a re-analysis of the deposited data

Results flagged for a closer look

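Among 114 sets of 4 mice, 37 members and 20 partner genes in each genotype, 10 held 1 mouse far from the other 3, where chance gives about 1 in 20. Mouse 4 was the distant one in 6 of the 10. In transgenic mouse 4, Itgb4 was at 8.89 against 9.15 to 9.18 in the other 3, Itgam at 12.28 against 13.22 to 13.40 and Lama2 at 9.79 against 10.28 to 10.32. In wild-type mouse 4, Itgb2 was at 9.32 against 10.97 to 11.17, Col4a2 at 11.88 against 12.75 to 12.92 and Ptk2b at 9.06 against 9.50 to 9.56. Itga8 was at 11.87 in wild-type mouse 2 against 12.37 to 12.47. Itgb3 was at 10.42 in wild-type mouse 1 against 10.95 to 11.05. Itgb6 was at 8.03 in wild-type mouse 3 against 9.60 to 9.72. Dag1 was at 11.64 in transgenic mouse 2 against 11.23 to 11.25.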

How the results depend on the processing

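The count of all genes called, 45, became 80 and 88 with offsets of 16 and 32, 71 with dim genes left out, 118 with a trended, robust variance, 5 with the replicate block and 17 without both mice numbered 4, and ran from 17 to 38 with 1 mouse left out. The count of members called, 1, became 2 (Itgb4 and Itga6) with either offset, with dim genes left out and with the trended, robust variance, 0 with each spot fitted on its own, 0 with the replicate block (Itgb4 adjusted p 0.169) and 0 without both mice numbered 4. It ran from 0 to 1 with 1 mouse left out. With 1 mouse left out, members at an unadjusted p under 0.05 ran from 5 to 11. Members without overlap ran from 5 to 11 too, where all genes gave 8.58% to 11.8%, against 6.53% with all mice. They became 12 without both mice numbered 4, where all genes gave 17.7%. With dim genes left out they were 4, where all genes gave 8%. Differences that changed sign were Itgb1 (-0.083 with the mean of all spots), Itgb2 (-0.19 without both mice numbered 4, -0.15 to 0.46 with 1 mouse left out) and Lamc1 (0.088 without both mice numbered 4, -0.10 to 0.069 with 1 mouse left out). The cause of these changes was not tested. The other 9 named members kept their direction under every setting that gave a value. Whether mouse numbers pair the genotypes is not given by the labels and was not settled by the values: same-numbered mice correlated at 0.138, -0.0128, 0.147 and 0.0753 in their deviations from the group means over 14312 genes, and 3 of 4 wild-type mice correlated best with their own number. Repeated quantile normalization and median centring left the values nearly as they were, since the arrays already shared a distribution. With dim genes left out, Itgad and Itgae were not tested. Signals under the floor carry no order.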
